A study of Mus musculus with 18 samples.

Results

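The ERBB receptors and their ligands were followed in 18 tumors grown from the 4T1 line, mouse mammary carcinoma cells that model triple-negative breast cancer, by bulk RNA-seq. The 10 genes were picked by symbol: the receptors Egfr, Erbb2 and Erbb3, the EGFR ligands Hbegf, Tgfa, Areg, Ereg, Btc and Epgn, and the ERBB3 ligand Nrg1. They are 10 of the 22792 genes in the count tables, and 9 of them were among the 15282 genes with enough counts to be tested. Epgn, with 0 to 10 counts per tumor, was not. Female Balb/c mice, 8 weeks old, received 300000 cells in the mammary fat pad, all from the same line, and were treated from day 7 until the tumors were taken on day 21. The groups were Vehicle (n = 5), PI3Ki (n = 4), given the pan-PI3K inhibitor CLR457 at 20 mg/kg 2 times a day, SHP2i (n = 4), given the allosteric SHP2 inhibitor SHP099 at 100 mg/kg 1 time a day, and Combo (n = 5), given both. Each library is 1 whole tumor and so holds host cells beside carcinoma cells. Depth was alike in all libraries, from 21.2 M to 26.6 M counts.

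The ERBB receptors are tyrosine kinases that work in pairs at the cell surface. EGFR binds the EGF-like ligands, ERBB3 binds neuregulins and has little kinase activity of its own, and ERBB2 binds no known ligand and serves as partner of the others. The ligands are made as membrane-anchored precursors that metalloproteases of the ADAM family cut free. Active receptors recruit GRB2, SHC1 and the phosphatase SHP2 toward RAS and ERK, and ERBB3 in particular recruits PI3K. In mammary epithelium amphiregulin, the product of Areg, mediates ductal growth in response to estrogen, and ERBB2 is the receptor amplified in HER2-positive breast cancer.

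Upstream sequence is given for Egfr and Erbb2, the receptors with the clearest rise, and for Areg, the ligand that varied most between tumors among those with ample counts. RefSeq holds a promoter window for 6 of the 10 genes (build GRCm38.p6). Each sequence below is the 250 bases before the start of the gene, read 5′ to 3′ on the strand of the gene, and capitals mark matches to the motifs searched.
Egfr, chr11:16751953-16752202, plus strand: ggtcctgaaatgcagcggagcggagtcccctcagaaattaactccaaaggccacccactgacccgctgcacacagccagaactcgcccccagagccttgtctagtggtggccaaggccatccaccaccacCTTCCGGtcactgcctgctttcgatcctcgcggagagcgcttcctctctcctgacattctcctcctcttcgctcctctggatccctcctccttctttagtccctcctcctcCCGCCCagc
Erbb2, chr11:98412234-98412483, plus strand: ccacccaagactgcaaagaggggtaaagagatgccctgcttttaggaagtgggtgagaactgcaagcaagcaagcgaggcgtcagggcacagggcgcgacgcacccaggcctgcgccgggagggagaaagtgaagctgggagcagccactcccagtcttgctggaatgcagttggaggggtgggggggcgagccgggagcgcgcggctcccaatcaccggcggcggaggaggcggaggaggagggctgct
Areg, chr5:91139349-91139598, plus strand: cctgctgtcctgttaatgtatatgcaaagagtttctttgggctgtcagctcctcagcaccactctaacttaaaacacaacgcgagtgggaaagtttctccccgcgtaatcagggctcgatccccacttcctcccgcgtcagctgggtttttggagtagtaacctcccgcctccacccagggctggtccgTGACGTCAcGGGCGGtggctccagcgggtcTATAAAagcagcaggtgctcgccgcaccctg
The motifs were searched on both strands: TGANTCA for AP-1, TGACGTCA for the CRE, CCGGAAG for ETS factors, GTAAACA for FOXO factors, GGGCGG for the GC box and TATAAA for the TATA box. The window of Egfr held an ETS match 120 to 114 bases before the start and a GC box 9 to 4 bases before it, both on the opposite strand. The window of Areg held a CRE match 61 to 54, a GC box 52 to 47 and a TATA match 31 to 26 bases before the start. The window of Erbb2 held none of these letters. No matches overlapped in these windows. Among 32851 promoters of the same length, 6.91% held the ETS letters, 32.7% the GC box, 1.55% the CRE, 12.4% TATA, 6.75% AP-1 and 3.17% FOXO. GC content was 60.8% for Egfr, 66.0% for Erbb2 and 57.2% for Areg, against a median of 52.4% over all promoters.

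Among the receptors, Erbb2 had the highest level per length in Vehicle tumors, and among the ligands Areg and Hbegf led. These levels are counts per M counts (CPM, scaled by TMM) per kb of exon, taken from the union of all annotated exons. Areg stood at 9.82 ± 4.04 CPM per kb (SD, n = 5), Hbegf at 7.36 ± 1.00 and Erbb2 at 6.75 ± 0.786. These values differed by less than the SD of the more variable gene in each neighbouring pair. Egfr followed at 3.11 ± 0.440 and Tgfa at 2.87 ± 0.494 CPM per kb, again within their SDs of each other. Before division by length, Egfr and Erbb2 stood at 35.23 ± 4.98 and 35.16 ± 4.09 CPM. Their order per length therefore rests on their exon unions of 11326 and 5210 bases. Erbb3 at 0.855 ± 0.0861 and Nrg1 at 0.702 ± 0.0633 CPM per kb were lower, and their ranges overlapped. Btc at 0.138 ± 0.0481, Epgn at 0.119 ± 0.0986 and Ereg at 0.117 ± 0.0807 CPM per kb were near the limit of detection, with 7 to 20, 0 to 10 and 3 to 21 counts per Vehicle tumor. All levels that follow are CPM of 1 gene across tumors, without division by length.

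**Figure D1:**
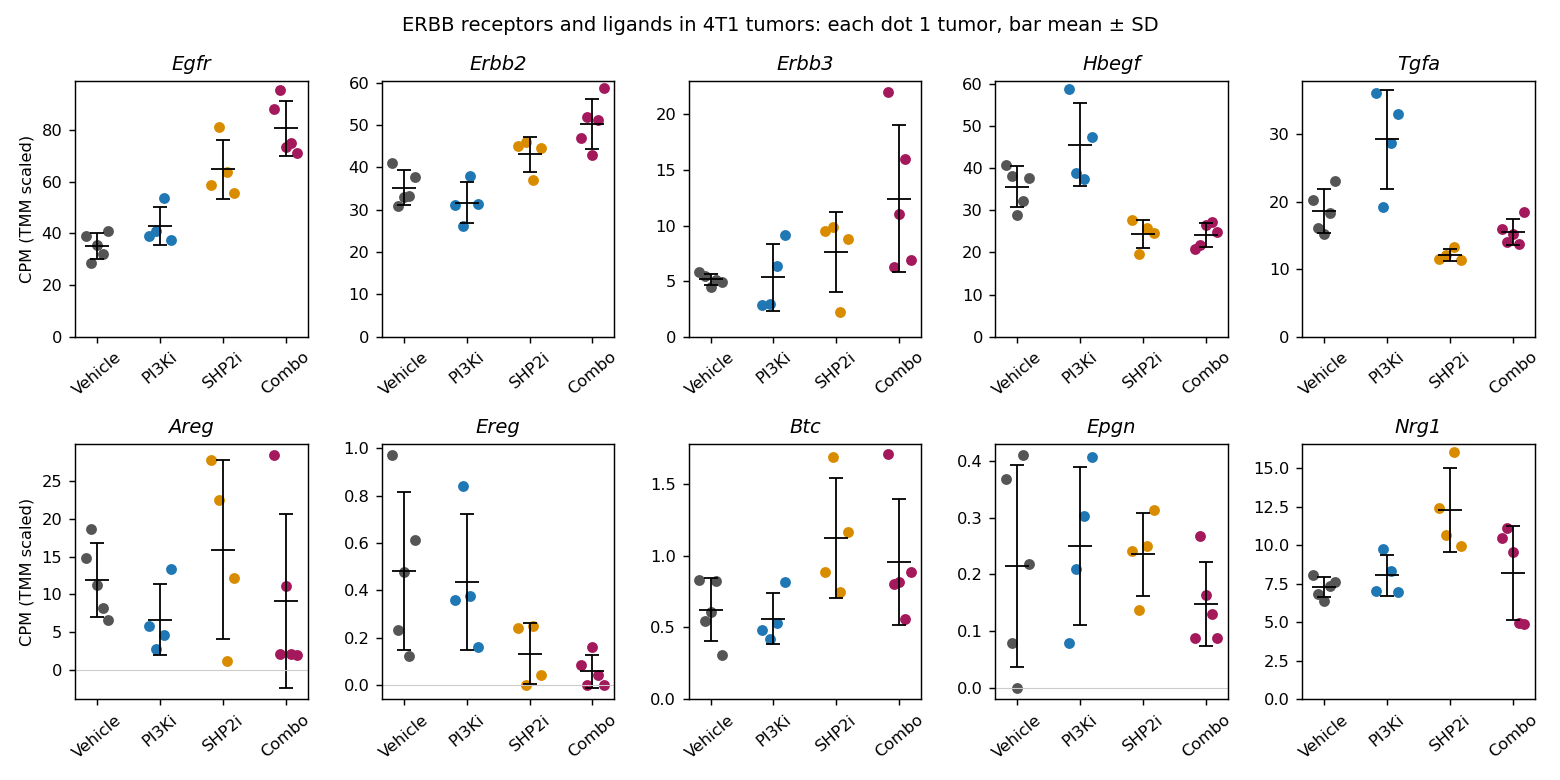
Level of each gene in CPM (y axis, TMM scaled, a scale of its own in each panel) by treatment group (x axis), with each dot 1 tumor and the bar the mean ± SD. Egfr rises from 28.7 to 40.7 CPM in Vehicle to 71.0 to 95.6 CPM in Combo, Hbegf is lower in all SHP2i and Combo tumors than in any Vehicle tumor, and Areg is spread over 1.12 to 28.4 CPM.

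Egfr was higher and Hbegf lower in the tumors that received the SHP2 inhibitor, alone or combined. Against Vehicle, SHP2i tumors had higher Egfr and Nrg1 and lower Hbegf and Tgfa, so 2 of 8 genes were higher and 2 lower at an adjusted p under 0.05 (edgeR's quasi-likelihood test with Benjamini-Hochberg adjustment over all genes), where 5.05% of all tested genes were higher and 6.54% lower. Combo tumors had higher Egfr, Erbb2 and Erbb3 and lower Hbegf, which is 3 of 8 higher and 1 lower beside 23.9% and 19.7% of all tested genes. PI3Ki tumors differed from Vehicle in Tgfa alone, 1 of 8 higher and 0 lower, beside 2.69% and 2.42% of all tested genes. For the 0 lower, no gene was lower at an unadjusted p under 0.05 either, and DESeq2 called 1 gene in all and limma's voom 2. These counts leave out Ereg, which passed the filter on low counts only through its higher Vehicle and PI3Ki tumors, so that its test was partly set by the filter. The median log2 fold change of the 8 genes was 0.10 in PI3Ki, 0.49 in SHP2i and 0.35 in Combo, beside medians of 0.01, 0.02 and 0.02 over all tested genes. In a bulk sample, fewer cells of a type and less RNA per cell cannot be told apart, and this holds for every level given here.

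Against PI3Ki, Egfr and Erbb2 were higher and Hbegf and Tgfa lower in both groups given the SHP2 inhibitor. Combo tumors had higher Egfr, Erbb2 and Erbb3 and lower Hbegf and Tgfa than PI3Ki tumors, 3 of 8 higher and 2 lower where 19.9% of all tested genes were higher and 17.8% lower. SHP2i tumors had higher Egfr and Erbb2 and lower Hbegf and Tgfa than PI3Ki tumors, 2 of 8 in each direction beside 11.6% and 12.8%. These comparisons share their PI3Ki tumors, as those above share Vehicle. Between Combo and SHP2i 0 of 8 genes passed edgeR's test, where 11.8% of all tested genes were higher and 10.3% lower, although Egfr, Tgfa and Nrg1 had an unadjusted p under 0.05. DESeq2 called 1 (Nrg1) and limma's voom 1 (Egfr). The interaction, which asks whether the step with both inhibitors departs from the sum of the single steps on the log2 scale, passed in 0 of 8 genes, beside 0.864% of all tested genes above and 1.61% below 0. Erbb2 and Nrg1 had an unadjusted p under 0.05 there, and neither DESeq2 nor voom called any.

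**Figure D2:**
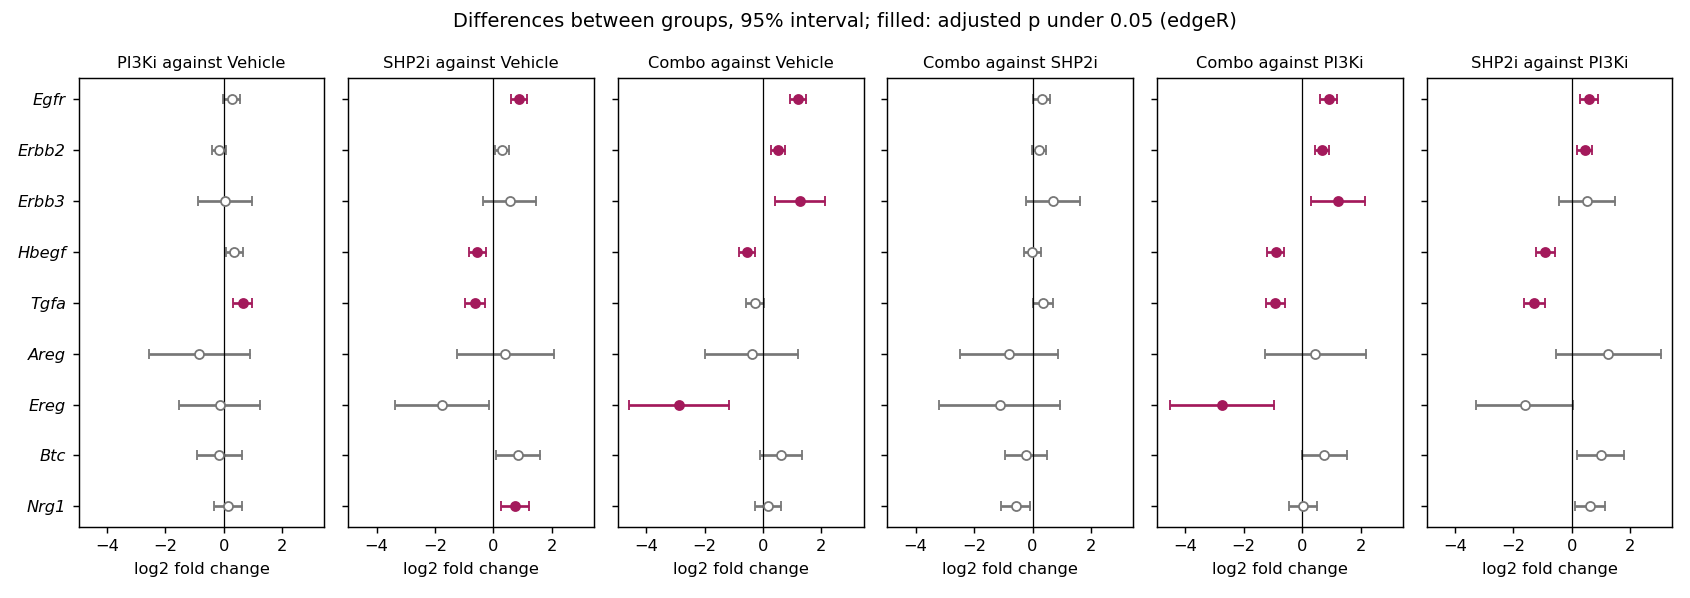
Log2 fold change (x axis) of the 9 tested genes (y axis) in 6 comparisons, with 95% intervals from edgeR and filled symbols at an adjusted p under 0.05. Egfr lies to the right of 0 and Hbegf to the left wherever a group with the SHP2 inhibitor is compared with one without it, while the intervals of Areg span 0 in all 6 panels. Ereg is drawn as fitted but entered the test only through its Vehicle and PI3Ki tumors.

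Egfr, the receptor for most of the EGF-like ligands, spans chr11:16752203-16913907. It measured 39.1, 28.7, 35.7, 32.0 and 40.7 CPM in Vehicle tumors and 38.9, 40.8, 53.8 and 37.5 CPM in PI3Ki tumors. In SHP2i tumors it measured 58.5, 81.2, 63.7 and 55.8 CPM, and in Combo tumors 88.0, 95.6, 73.5, 75.2 and 71.0 CPM. Every tumor given the SHP2 inhibitor, alone or in combination, lay above every tumor that was not. Combo was 2.29-fold above Vehicle (log2 fold change 1.20, SE 0.13; edgeR, adjusted p = 3.62e-06) and SHP2i 1.84-fold. Combo was also 1.89-fold above PI3Ki (adjusted p = 0.000112 in edgeR). The SHP2i and Combo tumors overlapped, and their difference of 0.32 on the log2 scale (95% interval 0.03 to 0.61) had an adjusted p of 0.107 in edgeR. Without SHP2i replicate 3, the SHP2i tumor with the highest Egfr, that difference was 0.45 with an adjusted p of 0.0357 in edgeR. PI3Ki and Vehicle overlapped (log2 fold change 0.28, 95% interval -0.01 to 0.57). In order of mean level, Vehicle, PI3Ki, SHP2i and Combo, only the step from PI3Ki to SHP2i passed the test between neighbours. An antisense transcript, Egfros, overlaps the gene and is not among the counted genes. Without a stated strand setting, any of its reads that fell on Egfr exons cannot be told apart from those of Egfr.

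Erbb2 (chr11:98412484-98437716), the partner receptor without a ligand of its own, was higher in Combo than in Vehicle and PI3Ki, by smaller factors than Egfr. Vehicle tumors measured 41.0, 30.9, 33.0, 33.2 and 37.8 CPM, and PI3Ki tumors 31.2, 26.1, 37.9 and 31.4 CPM. SHP2i tumors measured 44.9, 46.0, 37.0 and 44.5 CPM, and Combo tumors 46.8, 51.9, 42.9, 51.1 and 58.7 CPM. All 5 Combo tumors were above all Vehicle and PI3Ki tumors, while 3 of the 4 SHP2i tumors were above all Vehicle tumors. Combo was 1.43-fold above Vehicle (log2 fold change 0.52, SE 0.11; edgeR, adjusted p = 0.00107) and 1.59-fold above PI3Ki (adjusted p = 0.000326). SHP2i was 1.36-fold above PI3Ki (adjusted p = 0.0137 in edgeR), which was no longer called without PI3Ki replicate 2, the lowest of the 18 tumors (0.35 on the log2 scale, adjusted p = 0.0525). Against Vehicle, SHP2i gave 0.29 on the log2 scale (95% interval 0.05 to 0.53) with an adjusted p of 0.1 in edgeR, and limma's voom called it at 0.30 with an adjusted p of 0.0147. No pair of neighbours in the order PI3Ki, Vehicle, SHP2i, Combo differed past the threshold. Mien1, which overlaps the end of Erbb2 on the opposite strand, stood at 31.6 ± 5.01 CPM in Vehicle (n = 5) and 28.6 ± 3.51 CPM in Combo (n = 5), a log2 difference of -0.15 (SE 0.13) that did not pass.

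Erbb3 (chr10:128567523-128589635), the neuregulin receptor that couples to PI3K, was uniform in Vehicle and scattered in every treated group. It measured 5.82, 5.44, 4.45, 5.09 and 4.93 CPM in Vehicle, and 2.87, 2.94, 6.32 and 9.17 CPM in PI3Ki. SHP2i tumors measured 9.53, 9.90, 2.25 and 8.82 CPM, and Combo tumors 22.01, 6.26, 11.01, 16.0 and 6.86 CPM. The coefficient of variation was 10.1% in Vehicle, 56.8% in PI3Ki, 47.4% in SHP2i and 53.3% in Combo. All Combo tumors lay above all Vehicle tumors, and SHP2i replicate 4 lay below every other tumor. Combo was 2.42-fold above Vehicle (log2 fold change 1.27, SE 0.41; edgeR, adjusted p = 0.019), and 0.97 on the log2 scale with an adjusted p of 0.0645 without Combo replicate 1. Combo against PI3Ki, 2.33-fold with an adjusted p of 0.0377 in edgeR, was lost when PI3Ki replicates 1, 2 or 3 or Combo replicates 1 or 4 were left out in turn (adjusted p from 0.0506 to 0.128), and in voom (0.12) and with the compared groups alone (0.0869). SHP2i against Vehicle gave 0.57 (95% interval -0.34 to 1.48), and 0.86 with an adjusted p of 0.194 in edgeR without SHP2i replicate 4. No neighbours in the order Vehicle, PI3Ki, SHP2i, Combo differed past the threshold.

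Hbegf (chr18:36504927-36515805), which encodes the heparin-binding EGF-like ligand of EGFR and ERBB4, was the ligand that fell under both SHP2i and Combo. Vehicle tumors measured 40.8, 38.2, 29.0, 32.2 and 37.7 CPM, and PI3Ki tumors 58.7, 38.7, 37.4 and 47.5 CPM. SHP2i tumors measured 27.6, 19.7, 25.7 and 24.5 CPM, and Combo tumors 20.7, 21.9, 26.5, 27.3 and 24.8 CPM. All 9 tumors that received the SHP2 inhibitor lay below all 9 that did not. Combo stood at 0.681 of the Vehicle level (log2 fold change -0.55, SE 0.13; edgeR, adjusted p = 0.00313) and at 0.531 of the PI3Ki level (adjusted p = 0.000119). SHP2i stood at 0.686 of Vehicle (log2 fold change -0.54, SE 0.14; edgeR, adjusted p = 0.0205), which without SHP2i replicate 3 became -0.46 with an adjusted p of 0.0586. Combo and SHP2i differed by -0.01 on the log2 scale (95% interval -0.31 to 0.29). PI3Ki against Vehicle gave 0.36 (95% interval 0.06 to 0.65) with an adjusted p of 0.160 in edgeR, and voom called it at 0.54 with an adjusted p of 0.00984.

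Tgfa (chr6:86195038-86275744), the gene of transforming growth factor alpha, a ligand of EGFR, rose with PI3Ki and fell with SHP2i. Vehicle tumors measured 20.3, 16.2, 15.2, 18.3 and 23.2 CPM, and PI3Ki tumors 36.1, 19.2, 28.7 and 33.1 CPM. SHP2i tumors measured 11.6, 12.1, 13.3 and 11.3 CPM, and Combo tumors 16.0, 14.0, 15.2, 13.7 and 18.6 CPM. The SHP2i tumors formed the lowest and tightest group, below every other tumor, and 3 of 4 PI3Ki tumors were above all others. SHP2i stood at 0.412 of PI3Ki (log2 fold change -1.28, SE 0.17; edgeR, adjusted p = 8.96e-05). Against Vehicle, SHP2i stood at 0.648 (log2 fold change -0.63, SE 0.16; edgeR, adjusted p = 0.0193), and without SHP2i replicate 5 the adjusted p was 0.0554. PI3Ki was 1.57-fold above Vehicle (log2 fold change 0.65, SE 0.16; edgeR, adjusted p = 0.0216). That call was lost when Vehicle replicates 2, 3 or 4 or PI3Ki replicates 1 or 5 were left out in turn, with adjusted p from 0.0548 to 0.086, and with the compared groups alone (0.0657). Without PI3Ki replicate 2 the log2 fold change was 0.81 with an adjusted p of 0.00178. Combo lay 0.27 below Vehicle on the log2 scale (95% interval -0.58 to 0.05), which passed only without PI3Ki replicate 2 (-0.29, adjusted p = 0.0499). Every Combo tumor was above every SHP2i tumor, by 0.36 (95% interval 0.02 to 0.70), with an adjusted p of 0.118 in edgeR.

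**Figure D3:**
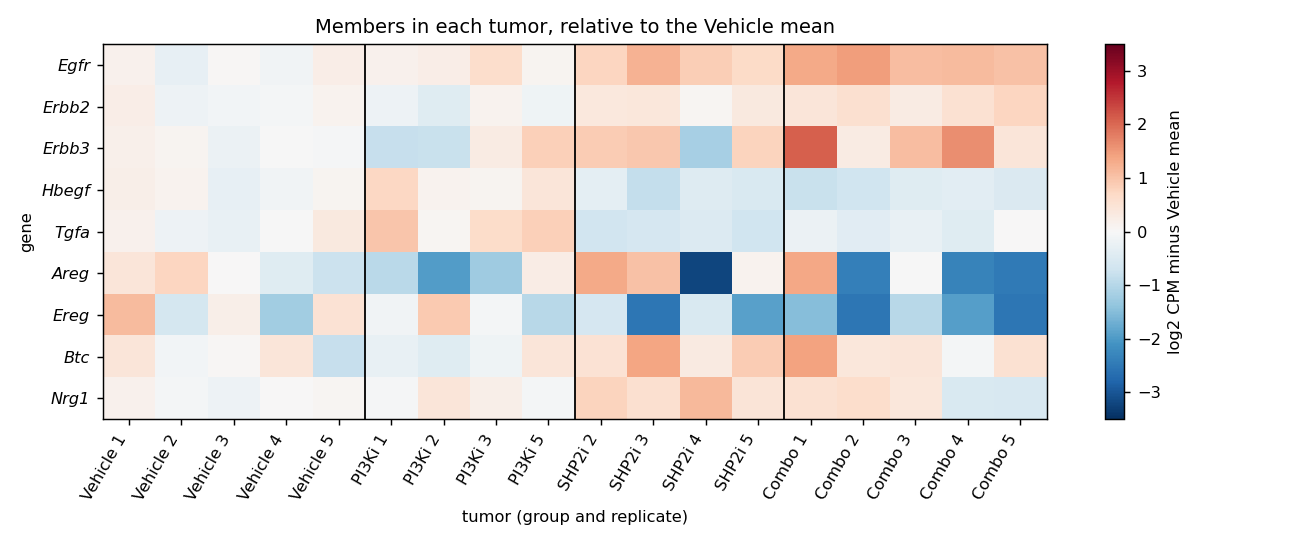
Log2 CPM of the 9 tested genes (rows) in each of 18 tumors (columns, ordered by group) minus the mean of the Vehicle tumors, with red above and blue below it. Egfr is red in all 9 tumors given the SHP2 inhibitor, and Areg runs from -3.21 in SHP2i replicate 4 to 1.34 in Combo replicate 1.

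Areg (chr5:91139599-91148432), the gene of amphiregulin, had the widest spread of the well-counted ligands and did not differ between groups. Vehicle tumors measured 14.9, 18.7, 11.2, 8.25 and 6.63 CPM, and PI3Ki tumors 5.79, 2.81, 4.61 and 13.4 CPM. SHP2i tumors measured 27.8, 22.5, 1.12 and 12.1 CPM, and Combo tumors 28.4, 2.06, 11.1, 2.12 and 1.95 CPM. The highest and the lowest tumor, Combo replicate 1 and SHP2i replicate 4, were 25.2-fold apart and both came from groups given the SHP2 inhibitor. All groups overlapped, and the test of any difference among the 4 groups gave an adjusted p of 0.555 in edgeR. Combo against Vehicle was -0.39 on the log2 scale (95% interval -1.98 to 1.21), and without Combo replicate 1 it was -1.44 with an adjusted p of 0.119 in edgeR. SHP2i against Vehicle was 0.41 (95% interval -1.26 to 2.09) and without SHP2i replicate 4 it was 0.79 with an adjusted p of 0.549. These intervals are wide, and changes of 2-fold in either direction lie inside them.

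Areg and Erbb3 deviated from their group means together. The correlation of those deviations over 18 tumors was 0.79, against 0.46 for the levels themselves, and between Areg and Btc it was 0.64. These correlations are descriptions over tumors that share a cell line and a library protocol. Markers of carcinoma epithelium, 13 genes that are mostly keratin, claudin and adhesion genes, varied with them. Their mean log2 level relative to Vehicle was -1.22 in SHP2i replicate 4 and -1.61 in PI3Ki replicate 2, the lowest Areg tumors of their groups. It was 0.66 in PI3Ki replicate 5, 0.59 in Combo replicate 1 and 0.45 in SHP2i replicate 2, the highest Areg tumors of their groups. In Combo replicates 2, 4 and 5, where Areg was 1.95 to 2.12 CPM, it was -0.52, -0.02 and -0.61. Krt8 and Krt18, the markers with the highest level per length, stood at 559 ± 88.7 and 375 ± 69.8 CPM in Vehicle (n = 5). Krt8 was lower in Combo, at 393 ± 53.5 CPM (n = 5), by 0.51 on the log2 scale against Vehicle, 0.42 against SHP2i and 0.67 against PI3Ki (edgeR, adjusted p = 0.00503, 0.0395 and 0.00135). Krt18 at 306 ± 56.7 CPM in Combo (n = 5) was lower than in PI3Ki (by 0.69, adjusted p = 0.00377 in edgeR). Of the 13 markers, 1 was higher and 1 lower in Combo (beside 23.9% and 19.7% of all tested genes), 1 higher and 0 lower in PI3Ki (2.69% and 2.42%), and 0 in either direction in SHP2i (5.05% and 6.54%) against Vehicle (edgeR, adjusted). In SHP2i 0 were higher and 1 lower at an unadjusted p under 0.05, as DESeq2 called, and voom called 0. Against SHP2i, Combo had 1 of the 13 higher and 1 lower (11.8% and 10.3% of all tested genes). Against PI3Ki it had 0 higher and 2 lower (19.9% and 17.8%). The median of the 13 in Combo was 0.15 on the log2 scale against Vehicle, 0.07 against SHP2i and -0.12 against PI3Ki. Single markers ran from -1.56 to 1.30 in Combo against Vehicle. The part of epithelial content in the spread of Areg and Erbb3 was not tested.

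Nrg1, the neuregulin that binds ERBB3 and ERBB4, was higher in SHP2i tumors, at the edge of the threshold. It measured 8.08, 6.85, 6.41, 7.38 and 7.63 CPM in Vehicle and 7.07, 9.78, 8.36 and 6.97 CPM in PI3Ki. SHP2i tumors measured 12.4, 10.7, 16.0 and 9.98 CPM, and Combo tumors 10.5, 11.1, 9.59, 4.97 and 4.87 CPM. All SHP2i tumors were above all Vehicle and PI3Ki tumors, while Combo split into 3 tumors above and 2 below every Vehicle tumor. SHP2i was 1.69-fold above Vehicle (log2 fold change 0.76, SE 0.23; edgeR, adjusted p = 0.0406). Leaving out any Vehicle tumor, any SHP2i tumor or PI3Ki replicate 5 ended that call, 10 of 18 tumors, with log2 fold changes of 0.59 to 0.83 and adjusted p up to 0.151. It was also lost with no filter on low counts (adjusted p = 0.0537). Combo differed from SHP2i by -0.58 (95% interval -1.06 to -0.10; adjusted p = 0.0756 in edgeR), from Vehicle by 0.17 (95% interval -0.29 to 0.63). Nrg1 spans chr8:31807452-32891609 on the minus strand. Several other annotated genes overlap that span, none of them among the counted genes, and whether their reads fell on Nrg1 was not tested.

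Ereg, Btc and Epgn, which encode epiregulin, betacellulin and epigen, were scarce. Ereg gave 21, 6, 11, 3 and 14 counts in Vehicle and 9, 20, 10 and 4 counts in PI3Ki. SHP2i tumors gave 6, 0, 6 and 1 counts, and Combo tumors 2, 0, 4, 1 and 0. The sum was 55 counts in 5 Vehicle tumors and 7 in 5 Combo tumors, and the ranges overlapped. PI3Ki tumors held 43 counts in 4 tumors and SHP2i tumors 13 in 4. These counts are given as a description, with no test, since Ereg passed the filter only through its Vehicle and PI3Ki tumors. Btc gave 73 counts in all Vehicle tumors, 56 in PI3Ki, 103 in SHP2i and 110 in Combo. Its mean was 0.623 ± 0.217 CPM in Vehicle (n = 5) and 1.12 ± 0.415 CPM in SHP2i (n = 4), a log2 fold change of 0.84 (95% interval 0.10 to 1.58) with an adjusted p of 0.126 in edgeR. Epgn gave 25, 25, 22 and 17 counts in all tumors of Vehicle, PI3Ki, SHP2i and Combo, and a difference was not detectable at this depth.

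The rest of the family added no call against Vehicle in edgeR. Erbb4, the remaining receptor, stood between 0.266 and 1.10 CPM in all 18 tumors, and Egf, the founding ligand, between 0.0864 and 1.51 CPM. Of Erbb4, Egf, Nrg2, Nrg3 and Nrg4, 0 of 5 passed against Vehicle in any treated group (edgeR, adjusted), with 1 at an unadjusted p under 0.05 in PI3Ki (Egf), 1 in Combo (Nrg2) and 0 in SHP2i. Over all tested genes, 2.69% were higher and 2.42% lower in PI3Ki, 5.05% and 6.54% in SHP2i, and 23.9% and 19.7% in Combo. Voom called 1 of the 5 genes in PI3Ki and DESeq2 1 in Combo, with no other call by either tool. Nrg2 was lower in Combo than in PI3Ki (log2 fold change -1.10, SE 0.30; edgeR, adjusted p = 0.00833), at 2.06 ± 0.670 CPM (n = 5) against 4.41 ± 0.340 CPM (n = 4). Nrg4, a ligand of ERBB4, had the highest level per length of them, and its CPM was 23.9 ± 2.19 in Vehicle (n = 5) and 22.5 ± 0.859 in Combo (n = 5).

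Among the genes that release the ligands, Rhbdf2 fell in SHP2i and in Combo. Of 10 sheddases and partners, 1 was higher and 3 lower in Combo, 0 and 1 in SHP2i, and 0 and 0 in PI3Ki against Vehicle, with medians of -0.17, -0.003 and 0.15 on the log2 scale. Over all tested genes, 23.9% were higher and 19.7% lower in Combo, 5.05% and 6.54% in SHP2i, and 2.69% and 2.42% in PI3Ki. In PI3Ki 0 of these genes had an unadjusted p under 0.05, and neither DESeq2 nor voom called any. In SHP2i voom called 1 higher. Rhbdf2, a pseudoprotease that carries ADAM17 to the cell surface, fell from 47.6 ± 4.27 CPM in Vehicle to 35.5 ± 4.94 in SHP2i and 30.5 ± 3.24 in Combo (n = 5, 4 and 5), by 0.42 and 0.64 on the log2 scale (edgeR, adjusted p = 0.0155 and 8.46e-05). Adam8, a metalloprotease of myeloid cells among others, fell by 1.62 (SE 0.39; adjusted p = 0.00308) and Adam15 by 0.52 (SE 0.10; adjusted p = 0.000576) in Combo by the same edgeR test. Adam10, which cuts Egf and Btc precursors, was higher in Combo by 0.29 (SE 0.09; adjusted p = 0.011). In the same comparison 8 of 10 neutrophil and 8 of 10 macrophage markers were lower, and the part of myeloid cells in the fall of Adam8 was not tested.

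Of 12 inhibitors and turnover factors of the receptors, 3 were higher and 2 lower in Combo, near the 23.9% and 19.7% of all tested genes, 0 and 2 in SHP2i (5.05% and 6.54% of all), and 0 and 0 in PI3Ki (2.69% and 2.42%). At an unadjusted p under 0.05 there were 1 and 3 in SHP2i and 2 and 1 in PI3Ki, where DESeq2 called 0 and 2, and 1 and 0, and voom 3 and 3, and 1 and 2. Lrig2, of a family of transmembrane proteins that regulate growth factor receptors, was 1.67-fold higher in Combo than in Vehicle (edgeR, adjusted p = 1.48e-05) and Cblb, a ubiquitin ligase of receptor turnover, 1.36-fold (adjusted p = 0.00529). Errfi1, an inhibitor of the EGFR kinase and the highest of the list per length, rose 1.39-fold in Combo (adjusted p = 0.0104) and stood 1.42-fold above Vehicle in PI3Ki with an adjusted p of 0.0529. Ptpn1, a tyrosine phosphatase that acts on EGFR, fell by 0.36 on the log2 scale in Combo (adjusted p = 0.00739). Rnf41, a ubiquitin ligase of ERBB3, fell by 0.32 in SHP2i (adjusted p = 0.0312) and was at -0.02 in Combo. The medians of the list were 0.03, 0.03 and 0.15 for PI3Ki, SHP2i and Combo.

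Of 13 adaptor and RAS switch genes, 6 were higher and 5 lower in Combo, 2 and 1 in SHP2i, and 2 and 1 in PI3Ki, with medians of 0.10, -0.08 and 0.02. The shares of all tested genes were 23.9% and 19.7%, 5.05% and 6.54%, and 2.69% and 2.42% in the same order. Src, a kinase activated downstream of the receptors, rose by 0.36 on the log2 scale in SHP2i and 0.53 in Combo (edgeR, adjusted p = 0.00519 and 2.06e-05), and Sos1, the exchange factor that loads RAS, by 0.39 and 0.57 (adjusted p = 0.032 and 0.000368). Grb2, the adaptor that brings SOS to the receptor, fell by 0.34 in each (adjusted p = 0.00573 and 0.000734).

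Of 10 genes known to follow ERK activity, 1 was higher and 2 lower in SHP2i, 2 and 3 in Combo, and 0 and 0 in PI3Ki, with medians of -0.09, -0.04 and 0.10. Single genes of the list ran from -0.95 to 0.94 on the log2 scale in SHP2i and from -1.03 to 0.66 in Combo. Of all tested genes, 5.05% were higher and 6.54% lower in SHP2i, 23.9% and 19.7% in Combo, and 2.69% and 2.42% in PI3Ki. In PI3Ki 1 was higher and 1 lower at an unadjusted p under 0.05, and DESeq2 called 1 lower and voom 0. Etv5, an ETS factor, fell from 63.9 ± 9.92 CPM in Vehicle (n = 5) to 33.1 ± 2.55 in SHP2i (n = 4) and 46.6 ± 9.001 in Combo (n = 5), by 0.95 and 0.46 on the log2 scale (edgeR, adjusted p = 0.000294 and 0.00702). Dusp6, the phosphatase of ERK, fell by 0.69 and 0.45 (adjusted p = 0.00241 and 0.00587), and Spry4, an inhibitor of receptor signaling, by 1.03 in Combo (adjusted p = 0.000107) and stood at -0.14 in SHP2i. Dusp4, a phosphatase of the same family, rose by 0.66 in Combo (adjusted p = 0.00181). Ccnd1, the gene of cyclin D1 and the highest of the list per length, was at 903 ± 104 CPM in Vehicle and 906 ± 148 in Combo (n = 5 each).

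**Figure D4:**
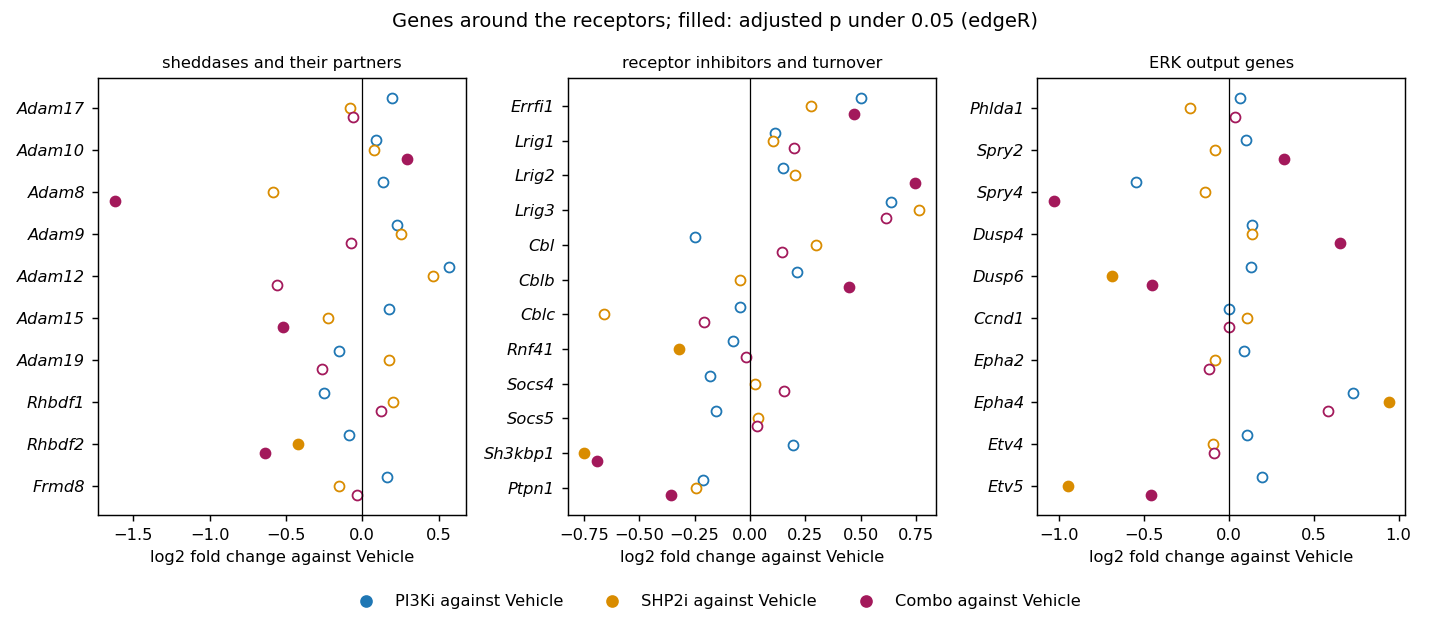
Log2 fold change against Vehicle (x axis) of each gene (y axis) in 3 lists of genes around the receptors, with color for the treated group and filled symbols at an adjusted p under 0.05 in edgeR. Adam8 lies at -1.62, Rhbdf2 at -0.64 and Lrig2 at 0.74 in Combo, and Etv5 and Dusp6 lie lower in SHP2i than in Combo.

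Markers of host cells moved with the same treatments. Against Vehicle, 6 of 10 macrophage markers, 1 of 10 neutrophil and 1 of 9 T and NK cell markers were lower in SHP2i, and 8, 8 and 5 were lower in Combo, where 8 of 10 endothelial and 5 of 9 mast cell and basophil markers were lower too and 4 of 9 Schwann cell markers higher (edgeR, adjusted). Of all tested genes 6.54% were lower and 5.05% higher in SHP2i, and 19.7% and 23.9% in Combo. The tools differed for several lists: DESeq2 called 5 of the neutrophil markers lower in Combo, and in SHP2i voom called 4 neutrophil and 5 T and NK cell markers lower. The summed level of the macrophage markers was 1915 to 2490 CPM in Vehicle, 688 to 1537 CPM in SHP2i and 364 to 1455 CPM in Combo. In SHP2i, 1 mast cell and basophil marker was lower, and 1 Schwann cell marker was higher and 1 lower. Fibroblast markers had 2 of 10 higher and 3 lower in Combo. B cell markers had 1 of 10 lower in SHP2i and 1 in Combo by edgeR, but in SHP2i 8 were lower at an unadjusted p under 0.05, DESeq2 called 7 and voom 5, and the median log2 fold change was -4.18. Their summed level was 9.31 to 15.3 CPM in SHP2i (median 11.67) and 30.3 to 132 CPM in Vehicle. Low levels were not particular to SHP2i. Combo tumors ran from 3.985 to 209.3 CPM with a median of 7.691, and PI3Ki tumors from 5.59 to 210.5 CPM with a median of 45.21. In PI3Ki, 10 of 10 skeletal muscle markers were higher, at a summed 837 to 2012 CPM against 4.55 to 104 CPM in Vehicle (2.69% of all tested genes were higher), and so were 2 of 10 neutrophil markers, whose mean log2 level was 2.55 above Vehicle in replicate 2. Of the muscle markers 2 were lower in SHP2i and 1 in Combo by edgeR, and in SHP2i 7 had an unadjusted p under 0.05, with 8 called by DESeq2 and 1 by voom. Keratinocyte markers, of which 3 of 10 had enough counts to be tested, had 1 higher and 1 lower in Combo. Hbegf and Tgfa are also made by myeloid cells and Egfr by stromal cells, and the part of these cells in the differences above was not tested.

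For each tested gene, the genes with the most similar log2 CPM over the 18 tumors, up to 3 each, were read from 12875 genes, as a description that carries the treatment differences. Egfr was followed by Itgav and Abcc1 (Pearson r 0.94), Erbb2 by Otx1, Adnp and Appbp2 (0.95 to 0.97) and Erbb3 by Nipal2 and Ptn (0.87 to 0.89). Hbegf was followed by Gm13031, Sigirr and Padi2 (0.93), Tgfa by Map3k5, Gpa33 and Fut8 (0.89 to 0.93) and Areg by Gipc2, Fxyd3 and Prom2 (0.81 to 0.90). Ereg lay nearest to Ptprn, Mmp10 and Pfkfb4 (0.84), Btc to Wnt4, Foxa1 and Celsr2 (0.82) and Nrg1 to Gen1, Nova1 and Lgi2 (0.84 to 0.87). For Areg the likeness was also present among tumors of the same group, with r of 0.92 to Gipc2 in the deviations from group means. This was not particular to Areg, with 0.90 for Erbb2 and Otx1, 0.85 for Erbb3 and Nipal2 and 0.84 for Nrg1 and Nova1. For Egfr it was 0.73 with Itgav and 0.58 with Abcc1. Within the family, Egfr and Erbb2 had r of 0.81 (0.44 in the deviations), Hbegf and Tgfa 0.83 (0.47) and Egfr and Hbegf -0.78 (-0.52).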

How the data were processed

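RNA was measured in 18 tumors, grouped by the treatment in the sample labels. The authors isolated poly(A) RNA, prepared directional libraries, aligned the reads with STAR (GRCm38) and obtained gene counts with QuasR. What they deposited are these raw whole-number counts. Versions, gene annotation and strand setting are not given in the sources used here, so overlapping genes may share reads. Symbols were matched to 22760 of 22792 Entrez identifiers. The 32 identifiers without a symbol carried 0.0193% of counts.

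The fit used edgeR 4.0.16 (R 4.3.3): filterByExpr (minimum count 10, minimum total 15), TMM scaling, 1 model over 18 tumors with a mean per group and no covariate, the quasi-likelihood test, and Benjamini-Hochberg adjustment over 15282 genes. A gene was called at an adjusted p under 0.05 with no fold minimum. Log2 CPM used a prior count of 2. The paper gives 4 to 5 animals per group for the RNA-seq. The labels do not name the animal of each tumor, so p-values measure the spread between these samples. The edgeR test was also run on simulated counts, with planted changes larger than most changes of the family genes. That run does not measure recovery at the sizes given here.

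The 10 genes and all lists were chosen with earlier results of these data known. Named beside them are 5 other family genes, per pathway list up to 4 genes with the smallest p among those called and the 2 with the highest level per length, per marker list at most 2 genes, and the 3 nearest genes by Pearson r among those with a mean log2 CPM over 1. Some genes that these rules name are not reported here. Mien1 was named for its overlap. Levels per length used the GENCODE M21 exon union (GRCm38), and promoters and positions came from RefSeq (GRCm38.p6). Alternatives were other scaling, filters and tests (DESeq2 1.42.0, voom of limma 3.58.1), a log2 fold change over 1, the compared groups alone, a replicate block and each tumor left out. Tumors of the same group were compared pairwise, and no such pair agreed within sampling noise. Tumors of different groups were not compared in this way.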

Additional observations from a re-analysis of the deposited data

Results flagged for a closer look

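In 60 groups of tumors, 4 groups for each of 15 genes of the family, the gap between the most extreme tumor and its nearest neighbour was compared with the group's range (Dixon's test). Chance flags about 1 in 20 groups, and 3 of the 60 passed. Erbb3 in SHP2i replicate 4 was the lowest of its group at 2.25 CPM, with a gap of 0.859 of the range. Btc in Combo replicate 1 was the highest of its group at 1.71 CPM, with a gap of 0.717, and without that tumor Combo against Vehicle moved from 0.61 to 0.30 on the log2 scale. Nrg3 in SHP2i replicate 3 was the highest of its group at 11.3 CPM, with a gap of 0.85.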

How the results depend on the processing

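Of 20 calls of the tested genes in the comparisons of 2 groups, 12 kept their direction and their side of the threshold under up to 28 alternatives without a fold limit (18 tumors left out in turn and 10 other settings), and 8 were lost under at least 1. Counts of calls given here include Ereg, whose test was partly set by the filter on low counts. Its call in Combo against Vehicle was kept in the 15 fits with a tumor left out and the 8 other settings in which Ereg was tested. Its call in Combo against PI3Ki was lost without PI3Ki replicate 2. Neither counts as evidence of a stable difference. No called value changed sign. With a log2 fold change over 1 as a further limit, the number called against Vehicle was 0 in PI3Ki, 0 in SHP2i and 3 in Combo. Against PI3Ki it was 2 for Combo and 1 for SHP2i, since most of these changes are under 2-fold. The 3 and the 2 include Ereg. Of all 15282 tested genes, 267, 572 and 1659 passed this limit in PI3Ki, SHP2i and Combo against Vehicle. Against PI3Ki, 1696 passed it in Combo and 1013 in SHP2i. For PI3Ki against Vehicle voom called 2 genes and the compared groups alone 0, and for Combo against SHP2i DESeq2 and voom called 1 each. With each tumor left out in turn the number ranged from 0 to 1 in PI3Ki, 2 to 4 in SHP2i and 4 to 6 in Combo against Vehicle, and from 0 to 1 for Combo against SHP2i. The lowest SHP2i count of 2 came without SHP2i replicate 3 or 5, and the 1 in Combo against SHP2i without SHP2i replicate 3 or Combo replicate 2. The 6 in Combo came without PI3Ki replicate 2, where Tgfa passed as well (adjusted p = 0.0499 in edgeR). Of the counts of 4, that without Combo replicate 1 had lost Erbb3 (adjusted p = 0.0645 in edgeR). Those without Vehicle replicate 1, 3 or 5 had lost no call among the genes tested, and Ereg was tested in 15 of the 18 fits. Why leaving out single tumors moved the other counts was not tested. The labels do not say whether the replicate numbers pair the tumors, and they were not taken as pairs. The deviations of the 24 same-numbered pairs correlated from -0.42 to 0.326 (median 0.018, against -0.006 in other pairs), over 0.1 in 8. Weak correlations over all genes cannot exclude pairing. With a replicate block, the numbers called were 1, 3 and 5 against Vehicle for PI3Ki, SHP2i and Combo, 0 for Combo against SHP2i, 5 and 4 for Combo and SHP2i against PI3Ki, and 0 for the interaction, and the lost calls were Nrg1 in SHP2i against Vehicle (adjusted p = 0.0526 in edgeR) and Erbb3 in Combo against PI3Ki (0.0704). The interaction was not refitted on compared groups alone, since it uses all 4. Depth limits Ereg, Btc and Epgn, which had at most 21, 39 and 10 counts in a tumor.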

Other observations

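Epgn, Ereg, Areg and Btc lie next to one another within 375.5 kb of chromosome 5 (91027517 to 91402994, GRCm38.p6). In Combo against Vehicle, Areg was at -0.39 and Btc at 0.61 on the log2 scale, and neither passed edgeR's test. The deviations of Areg from its group means correlated at 0.64 with those of Btc and at -0.07 with those of Ereg over 18 tumors.

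Egf stood at 0.878 to 1.51 CPM in the 4 PI3Ki tumors, above all 5 Vehicle tumors (0.313 to 0.656 CPM), with a log2 fold change of 1.27 (SE 0.44) and an adjusted p of 0.106 in edgeR. The same PI3Ki tumors had skeletal muscle markers at a mean log2 level of 5.42 to 6.95 above Vehicle, and the part of muscle in the level of Egf was not tested.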
